A study of Mus musculus with 7 samples.

Results

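Polycomb repressive complex 1 (PRC1) was followed here through 10 of its genes, of 29267 genes listed in each library. The members were listed by name, with earlier results of these data known, as the ring-finger pair Rnf2 and Ring1, the Pcgf subunits Bmi1, Pcgf1 and Pcgf6, the chromodomain and polyhomeotic subunits Cbx2, Cbx7 and Phc1, and the variant-complex subunits Rybp and Kdm2b. Each symbol was matched to 1 Ensembl gene identifier. All 10 reached a transcripts-per-million value (TPM) of at least 1 in every library.

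PRC1 is a ubiquitin ligase of chromatin that places ubiquitin on histone H2A and is best known for keeping developmental genes silent in pluripotent cells. RING1B (the product of Rnf2) or RING1A (Ring1) carries the catalytic ring finger and always pairs with 1 of several PCGF proteins. Canonical complexes add a CBX protein, which reads the methyl mark left by Polycomb repressive complex 2, and a PHC protein, which can polymerise, whereas variant complexes carry RYBP or YAF2 in place of CBX and are brought to DNA by other subunits such as KDM2B.

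Gene expression was measured by RNA sequencing in mouse cells that were reprogrammed to pluripotency in either of 2 media, mES or 5C. Fibroblasts (MEFs) of OG2 mice, which carry an egfp transgene under the Oct4 promoter (GOF18ΔPE), were infected with retroviruses for Oct4, Klf4, c-Myc and Sox2. mES medium contained serum, LIF and vitamin C, and 5C medium was DMEM/F12 with N2, bFGF, LIF, vitamin C and β-mercaptoethanol. On day 15, GFP-positive and GFP-negative cells were sorted at passage 0, giving for mES medium the libraries mES-Oct4GFP+ and mES-Oct4GFP-, and likewise for 5C medium. 5C-Oct4GFP+ cells were also carried in naive medium (LIF with 2i, a pair of kinase inhibitors) or in primed medium. These are here the converted naive and converted primed libraries, both labelled with 20 passages. A figure legend of the study instead describes a few days of culture in these media. The seventh library came from R1 embryonic stem cells (ESCs) in which the primed state was induced on MEF feeders, also labelled with 20 passages. The study describes their later maintenance on serum-coated plates, with small molecules in place of bFGF and activin A. All OG2 groups carried the 4 retroviral factors, reporter expression defined the sorted groups, and R1 cells are a different line, for which no transgene is described.

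Each group was 1 library, so the spread between cultures could not be estimated and no test across cultures was possible. Every interval below is a 95% interval for counting error only. The libraries held 6108252 to 11496615 expected counts. The labels of the states were checked on marker genes. In the 3 libraries mES-Oct4GFP+, 5C-Oct4GFP+ and converted naive 5 naive markers (Klf4, a delivered factor, was left out) were at 20.5 TPM or more. In both primed libraries none of these 5 exceeded 3.28 TPM and all 6 primed markers were at 82.9 TPM or more. The primed markers summed to 304 TPM in 5C-Oct4GFP+, 42.8 in mES-Oct4GFP+ and 40.2 TPM in converted naive cells. In 5C-Oct4GFP+ cells they were mixed, with Otx2 at 189, Zic2 at 103 and Fgf5 at 11.7 TPM. There T, Foxa2 and Cer1 were at 0.25 TPM or less. Fibroblast markers, 8 genes led by collagens, summed in GFP-negative cells to 498 TPM (mES medium) and 259.7 TPM (5C medium), to 216 TPM in R1 primed and 76.7 TPM in converted primed cells, but to 9.98, 10.5 and 14.6 TPM in the other 3 libraries, GFP-positive cells of mES and 5C medium and converted naive cells. The labels name the cell type of all OG2 libraries as embryonic fibroblast, the cell of origin, while only 3 of 8 fibroblast markers reached 1 TPM in either sorted GFP-positive library. In such bulk libraries fewer cells of a type and less RNA per cell cannot be told apart.

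The promoters of Bmi1, Kdm2b and Phc1 are shown first, because the study asked whether HIF1 and EMT transcription factors could act on epigenetic genes. Phc1 and Bmi1 are the members of widest range, and Kdm2b was added for its shift in transcript length. RefSeq starts were at hand for 7 of the 10 members, with 4 starts for Kdm2b and 10 promoters in all. Pcgf1, Cbx2 and Rybp were not matched. Each sequence is the 250 bases before a start on the gene's own strand, in the build GRCm38.p6, and capitals mark ACGTG or GCGTG, the core letters of a hypoxia response element, on either strand. Bmi1 (ENSMUSG00000026739) spans chr2:18677018-18686629 on the plus strand, Phc1 (ENSMUSG00000040669) chr6:122317731-122340561 and Kdm2b (ENSMUSG00000029475) chr5:122870665-122989823 on the minus strand. The Bmi1 promoter lies at chr2:18676768-18677017 on the plus strand. The Phc1 promoter lies at chr6:122340228-122340477 on the minus strand. For Kdm2b, also on the minus strand, the far start (chr5:122989100-122989349) and an internal start (chr5:122900368-122900617) are given.
Bmi1: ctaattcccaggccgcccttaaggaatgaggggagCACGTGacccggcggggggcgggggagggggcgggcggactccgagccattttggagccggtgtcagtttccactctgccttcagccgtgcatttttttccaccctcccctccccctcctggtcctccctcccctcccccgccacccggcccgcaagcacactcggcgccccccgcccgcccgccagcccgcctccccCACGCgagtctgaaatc
Phc1: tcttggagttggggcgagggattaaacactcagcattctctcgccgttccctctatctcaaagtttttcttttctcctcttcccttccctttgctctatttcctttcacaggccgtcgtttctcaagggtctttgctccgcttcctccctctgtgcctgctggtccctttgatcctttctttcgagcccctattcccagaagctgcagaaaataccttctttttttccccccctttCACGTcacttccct
Kdm2b far start: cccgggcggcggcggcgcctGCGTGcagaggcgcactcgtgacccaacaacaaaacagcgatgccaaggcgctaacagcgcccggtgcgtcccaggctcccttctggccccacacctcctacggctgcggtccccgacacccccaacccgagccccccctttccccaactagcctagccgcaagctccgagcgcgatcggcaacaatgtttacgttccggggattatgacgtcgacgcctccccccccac
Kdm2b internal start: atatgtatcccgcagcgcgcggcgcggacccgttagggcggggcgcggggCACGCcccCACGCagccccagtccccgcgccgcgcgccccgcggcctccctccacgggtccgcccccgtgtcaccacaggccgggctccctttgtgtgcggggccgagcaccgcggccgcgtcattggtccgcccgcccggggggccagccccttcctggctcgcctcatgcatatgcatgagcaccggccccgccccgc

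All 10 member promoters, of 7 genes, held ACGTG or GCGTG, against 38.6% of 32851 mouse promoters of the same length. Of the 4 Kdm2b promoters 2 overlap over most of their length and share the same matches. In the Bmi1 promoter 2 of the 3 matches are the same palindrome CACGTG, which reads as ACGTG on both strands. CAGGTG, an E-box bound by SNAIL and ZEB factors, was in none of the 10 and in 17.2% of all promoters. Other sites of EMT factors, such as those of TWIST, were not scanned, so their absence is not shown. With the promoter software Pscan, a different measure, the study reports enriched sites of HIF1 and of some EMT factors on the Bmi1 and Kdm2b promoters. It also reports lower expression of both genes after knockdown of such factors early in reprogramming. The cores contain a CpG, and the member promoters held 8 to 38 CpG, against a median of 6 over all promoters. The part of CpG content in the motif count was not tested, and a match of letters is a description and not a binding site.

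Of the catalytic pair, Rnf2 varied least of the 10 genes, at 109 TPM in GFP-positive and 70.5 in GFP-negative cells of mES medium, 85.4 and 63.8 in those of 5C medium, 89.2 in converted naive, 104 in converted primed and 97.7 TPM in R1 primed cells. The highest library was 1.70-fold above the lowest, and 5 of the 6 neighbouring pairs in its order did not differ beyond counting error. Both Oct4GFP- libraries were the lowest.

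Ring1, the less abundant paralog, ran the other way, at 6.26 TPM in GFP-positive and 25.5 in GFP-negative cells of mES medium, 17.0 and 33.3 in those of 5C medium, 7.52 in converted naive, 17.7 in converted primed and 14.6 TPM in R1 primed cells. It was lowest in the mES-Oct4GFP+ and converted naive libraries, which did not differ beyond counting error, and highest in both Oct4GFP- libraries. Ring1 made up 5.45% of the summed Ring1 and Rnf2 TPM (interval 4.05% to 7.28%) in mES-Oct4GFP+ and 34.3% (31.0% to 37.8%) in 5C-Oct4GFP-. Its counts were low, from 42 to 227 per library.

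Among Pcgf subunits, Bmi1 (PCGF4, a classical repressor of the Ink4a-Arf locus) ranked differently in the 2 media. Its level was 39.9 TPM in GFP-positive and 31.2 in GFP-negative cells of mES medium, 8.99 and 55.2 in those of 5C medium, 22.9 in converted naive, 11.6 in converted primed and 14.3 TPM in R1 primed cells. The lowest and the highest library were thus both from 5C medium and 6.14-fold apart. Only the converted primed and R1 primed libraries, neighbours in the order, did not differ beyond counting error.

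Pcgf1, the PCGF protein of the KDM2B-BCOR variant complex, was at 47.2 TPM in GFP-positive and 20.5 in GFP-negative cells of mES medium, 17.6 and 25.6 in those of 5C medium, 31.6 in converted naive, 17.4 in converted primed and 18.6 TPM in R1 primed cells. With 59 to 114 counts, only its top library stood apart from its neighbour. Pcgf6, the subunit of a variant complex that silences germline genes, was at 77.0 TPM in GFP-positive and 29.6 in GFP-negative cells of mES medium, 81.7 and 45.9 in those of 5C medium, 80.3 in converted naive, 59.8 in converted primed and 68.2 TPM in R1 primed cells. Both Oct4GFP- libraries were lowest, and the top 4 libraries did not differ between neighbours.

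Of the canonical readers, Cbx7 separated the sorted libraries by reporter. Its level was 114 TPM in GFP-positive and 22.4 in GFP-negative cells of mES medium, 123 and 23.8 in those of 5C medium, 96.1 in converted naive, 73.5 in converted primed and 72.6 TPM in R1 primed cells. The libraries fell into 3 pairs that did not differ within themselves beyond counting error, GFP-positive, primed and GFP-negative, with converted naive between the first and the second pair. Cbx2, a CBX protein that compacts chromatin, was at 18.5 TPM in GFP-positive and 11.1 in GFP-negative cells of mES medium, 12.3 and 21.1 in those of 5C medium, 17.2 in converted naive, 32.0 in converted primed and 27.3 TPM in R1 primed cells, highest in both primed libraries.

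Phc1, the polyhomeotic subunit, had the widest range, with 79.2 TPM in GFP-positive and 116 in GFP-negative cells of mES medium, 544 and 139.7 in those of 5C medium, 35.5 in converted naive, 413 in converted primed and 351 TPM in R1 primed cells. The 5C-Oct4GFP+ library was 15.3-fold above converted naive cells, which derive from it, and all 6 neighbouring pairs in its order differed beyond counting error. It was high in 5C-Oct4GFP+ and both primed libraries and low in the other 4.

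In the variant arm, Rybp, which binds ubiquitylated H2A, was at 98.2 TPM in GFP-positive and 48.1 in GFP-negative cells of mES medium, 79.7 and 52.5 in those of 5C medium, 80.0 in converted naive, 77.1 in converted primed and 81.9 TPM in R1 primed cells. Kdm2b, whose protein binds unmethylated CpG islands through a zinc finger and brings PCGF1 complexes there, was at 127 TPM in GFP-positive and 43.3 in GFP-negative cells of mES medium, 166 and 53.8 in those of 5C medium, 118 in converted naive, 69.7 in converted primed and 76.4 TPM in R1 primed cells. Both genes were lowest in the Oct4GFP- libraries. Kdm2b reads are uncertain to some extent. The deposited data list 22 transcripts under its identifier, and GENCODE M21 names 3 of them for other genes. The strand setting of the counting is not given in the sources used here.

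**Figure D1:**
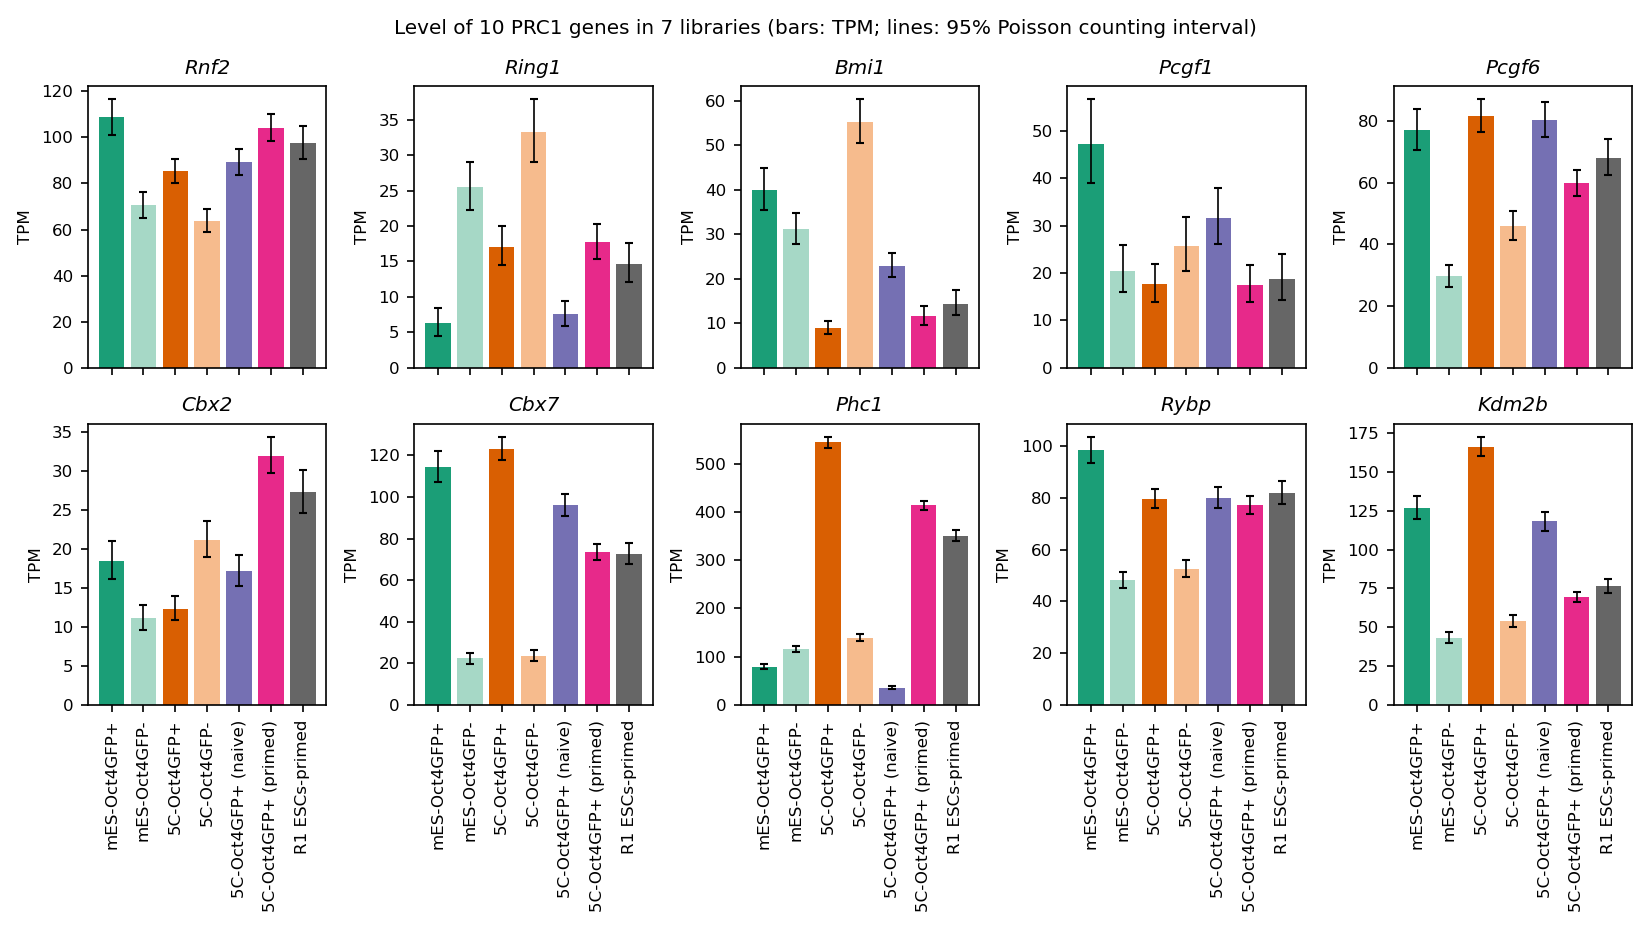
TPM (y axis, from 0, a separate scale per gene) of the 10 PRC1 genes in the 7 libraries (x axis); bars are the deposited level of 1 library each and lines its 95% Poisson counting interval. Cbx7, Pcgf6, Rybp and Kdm2b are lowest in both Oct4GFP- libraries, while Phc1 reaches 544 TPM in 5C-Oct4GFP+ and Bmi1 8.99 TPM there.

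The medium comparison in Oct4GFP- cells asked which genes differed between media in cells that had not switched on the reporter. A gene was counted as higher or lower where log2(TPM + 1) differed by at least 1.5-fold, among genes with 1 TPM or more in either library. Cbx2 was 1.90-fold higher in 5C-Oct4GFP- (interval 1.58 to 2.29), Bmi1 1.77-fold (1.54 to 2.04) and Pcgf6 1.55-fold (1.33 to 1.82). So 3 of 10 members were higher, where 19.9% of 15859 genes were, and 0 were lower, where 19.1% were. Kdm2b was 1.24-fold higher (1.11 to 1.39), which passed counting error but not the fold. By counting error alone 6 members were higher, against 32.8% of all genes, and 0 lower, against 29%. The study chose Bmi1 and Kdm2b with these libraries in hand, so their direction here is not independent evidence. At 2-fold 0 members were called in either direction, against 9.68% higher and 10.1% lower of all genes. Fibroblast markers differed between the same libraries, with the sums of 498 and 259.7 TPM given above. Pluripotency markers that were not delivered factors also differed from mES to 5C medium. Nanog was at 17.1 and 119.5 TPM, Zfp42 at 1.31 and 14.1, Dppa5a at 7.06 and 110, and Utf1 at 19.25 and 99.9 TPM. The part of either marker set in these differences was not tested.

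Of 26 other PRC1 genes, 3 were higher and 2 lower. Pcgf5, a further Pcgf subunit, differed most, with 43.9 TPM in mES and 14.0 TPM in 5C medium, a ratio of 0.318 (0.248 to 0.405). Auts2, a subunit of PCGF3 and PCGF5 complexes, was 2.86-fold higher (2.45 to 3.35). The median log2 difference was 0.31 over the members, 0.01 over the other PRC1 genes and 0.03 over all genes.

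In Oct4GFP+ cells the media differed for other members. With 5C medium Phc1 was 6.86-fold higher (6.39 to 7.38), beyond 96.9% of all genes in size, and Ring1 was 2.72-fold higher (1.92 to 3.93). Bmi1 was lower at a ratio of 0.225 (0.184 to 0.275) and Pcgf1 at 0.372 (0.275 to 0.502). These were 2 members higher and 2 lower of 10, against 21.9% and 24.5% of 15196 genes, so the share called was near that of all genes. Kdm2b was 1.31-fold higher (1.22 to 1.40) and Cbx7 and Pcgf6 did not differ beyond counting error. By counting error alone 3 members were higher and 5 lower, against 30.1% and 35% of all genes. Fibroblast sums were 10.5 and 9.98 TPM in these libraries, with 3 of 8 markers at 1 TPM or more in each.

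The medium ratios of 2 members pointed opposite ways in the reporter fractions, with both intervals leaving out 1, as did those of 17.5% of 17152 genes. For Bmi1, 5C medium was higher in Oct4GFP- and lower in Oct4GFP+ cells, and the ratio in positive cells was 0.127 of that in negative cells (0.10 to 0.16). For Cbx2 the same quotient was 0.351 (0.272 to 0.452), with a ratio of 0.667 (0.56 to 0.80) in Oct4GFP+ cells. Cbx7 and Kdm2b had quotients of 1.0 (0.85 to 1.2) and 1.05 (0.927 to 1.20). Without replicates these differences between fractions were not tested.

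**Figure D2:**
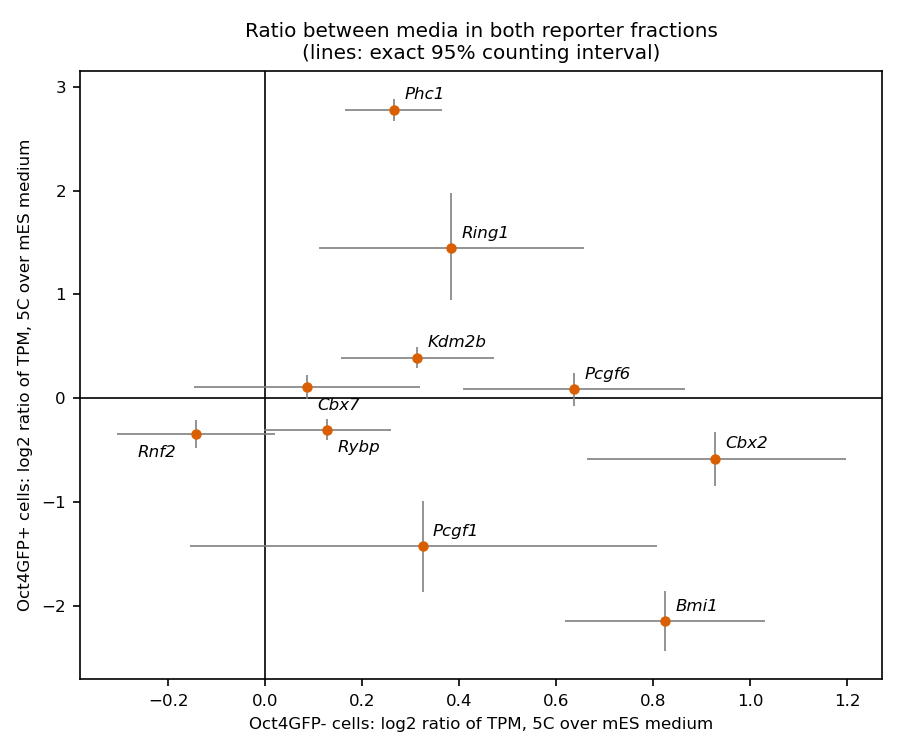
Ratio of TPM in 5C over mES medium on a log2 scale in Oct4GFP- cells (x axis) and Oct4GFP+ cells (y axis); each point is 1 member, lines are exact 95% counting intervals, and the axes have different scales. Bmi1, with quotient 0.127, and Cbx2, with 0.351, lie at the lower right, and Phc1 lies highest at a ratio of 6.86 in Oct4GFP+ cells.

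Between reporter fractions in mES medium, most members were higher in Oct4GFP+ cells. Cbx7 led at 5.11-fold (4.47 to 5.84), followed by Kdm2b at 2.93-fold (2.65 to 3.25), Pcgf6 at 2.61-fold (2.24 to 3.03), Pcgf1 at 2.30-fold (1.69 to 3.16) and Rybp at 2.04-fold (1.88 to 2.22). With Cbx2 and Rnf2, 7 of 10 members were higher, against 27.5% of 16294 genes, and Ring1 alone was lower, at 0.245 (0.172 to 0.342), against 38% of all genes. The median log2 difference was 0.85 over the members and -0.15 over all genes. Of the other 26 PRC1 genes 5 were higher and 11 lower, near the shares of all genes, with a median of -0.30. By counting error alone 8 members were higher and 2 lower, against 33% and 42.8% of all genes.

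In 5C medium 5 members were higher in Oct4GFP+ cells, against 14.7% of 15675 genes, and 3 lower, against 35.5%. Cbx7 was 5.18-fold higher (4.6 to 5.9), Phc1 3.89-fold (3.70 to 4.10), Kdm2b 3.09-fold (2.85 to 3.35), Pcgf6 1.78-fold (1.6 to 2.0) and Rybp 1.52-fold (1.40 to 1.64). Bmi1 was lower at 0.163 (0.135 to 0.195), beyond 95.2% of all genes in size, and at 0.244 in counts-per-million (CPM), which ignore transcript length. Also lower were Ring1 at 0.512 (0.414 to 0.631) and Cbx2 at 0.584 (0.495 to 0.689). At 2-fold 3 were higher and 1 lower, against 8.45% and 22.6% of all genes, and by counting error alone 6 were higher and 4 lower, against 24.3% and 46.9%. The median over all genes was -0.25 here and moved to -0.04 once TPM was rescaled by median-ratio size factors, and the share of called genes that were higher moved from 29.3% to 42.2%. Under that scaling Rnf2 was also called higher, at a log2 difference of 0.64, and Cbx2 at -0.52 was no longer called.

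Cbx7, Kdm2b, Pcgf6 and Rybp were higher and Ring1 lower by the fold in Oct4GFP+ cells of both media. Rnf2 was higher beyond counting error in both. The 2 comparisons share no library, but each is 1 library against 1. In mES and 5C medium taken singly, 27.5% and 14.7% of all genes were higher and 38% and 35.5% lower by the fold. The share of all genes called alike in both media was not computed, so this overlap has no background. Another 4 members, Bmi1, Pcgf1, Cbx2 and Phc1, had reporter ratios that pointed opposite ways with both intervals leaving out 1, which was so for 8.89% of all genes. Pcgf1 was 2.30-fold higher in Oct4GFP+ cells in mES medium but at 0.685 (0.495 to 0.946) in 5C medium. Phc1 was at 0.682 (0.625 to 0.743) in mES medium and 3.89-fold higher in 5C medium. The fibroblast list moved with the reporter in both media, with 8 of 8 markers in mES-Oct4GFP- and 7 of 8 in 5C-Oct4GFP- at 1 TPM or more against 3 of 8 in each Oct4GFP+ library, and its part was not tested.

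Other subunits also differed by reporter. Cbx8, a CBX paralog linked to differentiated cells, was at 13.3 TPM in GFP-negative cells of mES medium and at 9.55 TPM in those of 5C medium. In the 5 libraries of pluripotent cells it did not exceed 3.66 TPM. Its weighted transcript length differed between libraries, and in CPM the GFP-negative libraries were at 6.91 (mES medium) and 7.19 (5C medium) and the matching GFP-positive libraries at 3.27 and 1.24, differences smaller than in TPM. L3mbtl2, a partner of PCGF6, was at 69.1 TPM with GFP and 18.2 TPM without in mES medium, 3.79-fold higher (3.29 to 4.38). Yaf2, the paralog of Rybp, was at 5.17 TPM with GFP and 30.5 TPM without in 5C medium, a ratio of 0.170 (0.121 to 0.233).

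Since paralogs occupy the same place in the complex, their shares of summed TPM were compared within each library. Of the TPM summed over Cbx2, Cbx6, Cbx7 and Cbx8, Cbx7 held 69.5% in mES-Oct4GFP+ (interval 67.3% to 71.6%) and 72.0% in 5C-Oct4GFP+ (70.5% to 73.4%), but 23.9% (21.6% to 26.4%) and 25.3% (23.0% to 27.8%) in the matching Oct4GFP- libraries. In converted primed cells Cbx7 held 52.6% (50.8% to 54.4%) and Cbx2 22.9% (21.4% to 24.4%). Phc1 held 93.6% of Phc TPM in 5C-Oct4GFP+ (93.0% to 94.1%) and 54.1% to 86.1% in the other 6 libraries. Bmi1 held 3.96% of Pcgf TPM (3.39% to 4.64%) in 5C-Oct4GFP+ and 23.0% (21.2% to 24.8%) in 5C-Oct4GFP-, its extremes by TPM. In expected counts its lowest share was 3.96% in converted primed cells, below the 5.68% in 5C-Oct4GFP+. Rybp held 93.9% of Rybp and Yaf2 TPM in 5C-Oct4GFP+ and 62.3% in mES-Oct4GFP-.

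**Figure D3:**
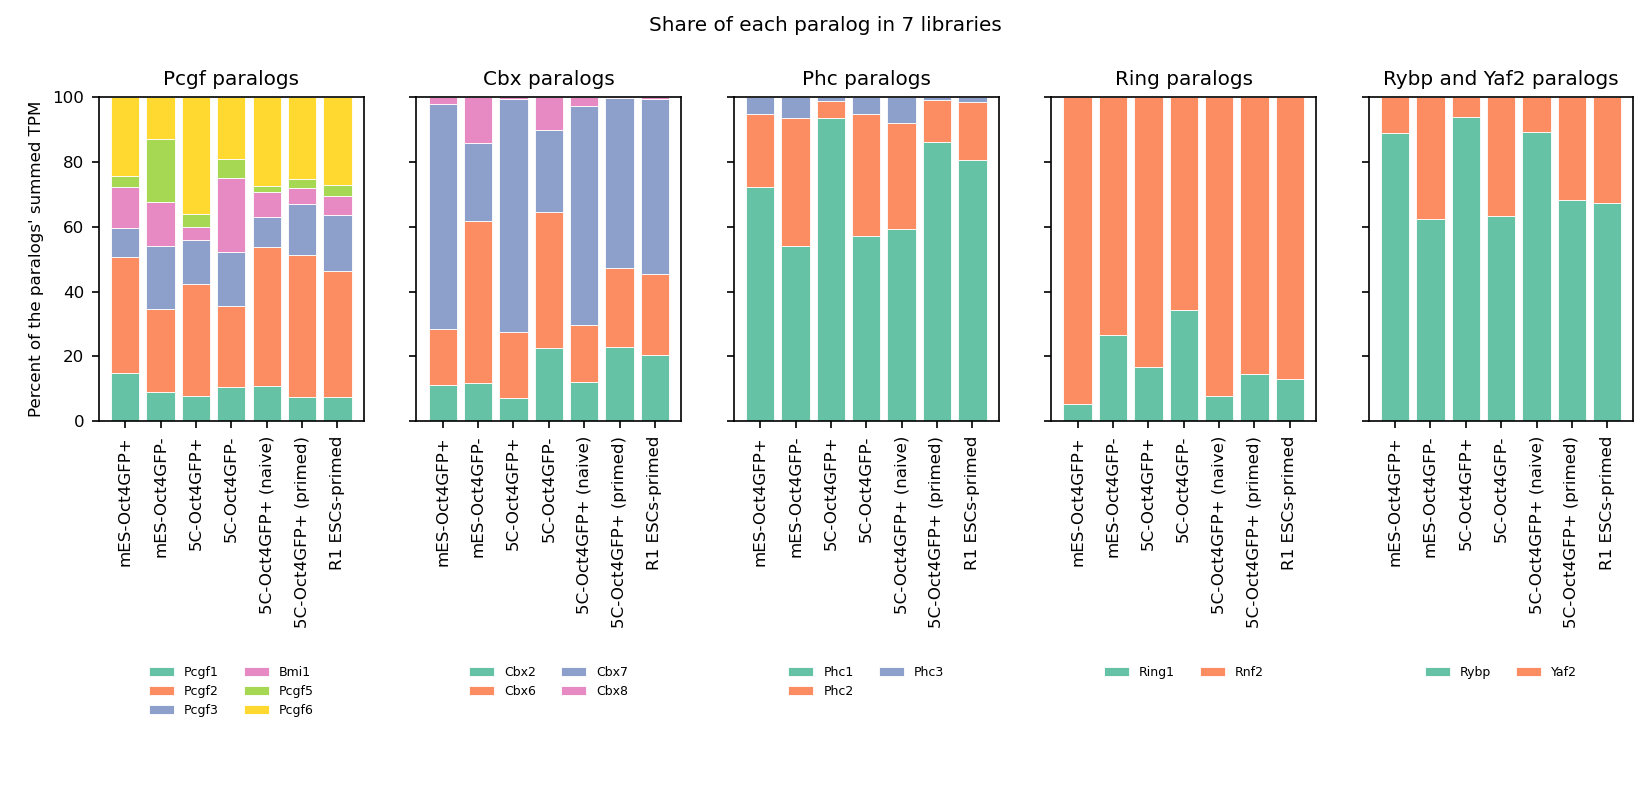
Percent of the summed TPM (y axis) held by each paralog shown of 5 subunit families in the 7 libraries (x axis); colours stand for genes within a panel. Cbx7 holds 69.5% and 72.0% of the TPM of the 4 Cbx genes shown in the sorted Oct4GFP+ libraries against 23.9% and 25.3% in the Oct4GFP- libraries, and Phc1 reaches 93.6% in 5C-Oct4GFP+.

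Conversion of 5C-Oct4GFP+ cells in naive medium was accompanied by a Phc1 level at 0.0653 of the starting one (0.0599 to 0.0710), a difference larger than that of 99.2% of 14863 genes. Ring1 was also lower, at 0.441 (0.329 to 0.587), and Bmi1 and Pcgf1 were higher, 2.55-fold (2.08 to 3.12) and 1.80-fold (1.33 to 2.44). These were 2 members higher and 2 lower, against 18.3% and 28.6% of all genes. By counting error alone 3 were higher and 4 lower, against 29% and 39.5%. Rybp, Pcgf6 and Rnf2 did not differ beyond counting error.

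In primed medium Cbx2 was 2.59-fold higher than in 5C-Oct4GFP+ cells (2.25 to 2.99), Kdm2b was at 0.420 (0.395 to 0.446) and Cbx7 at 0.596 (0.556 to 0.639). This made 1 member higher, against 24.2% of 15067 genes, and 2 lower, against 24.3%. By counting error alone 3 were higher and 4 lower, against 38.9% and 34.3%. Of the 3 higher, Rnf2 at 1.22 (1.12 to 1.33) and Bmi1 turned to 0.966 and 0.726 by CPM. Phc1 stayed high, at 0.760 of the starting level (0.737 to 0.784). Yaf2, in contrast to Rybp, was 6.90-fold higher (5.09 to 9.52). Both conversion comparisons share the 5C-Oct4GFP+ library.

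Naive and primed cells of the same origin differed by the fold in 6 of 10 members, near the share of all genes called in either direction. Bmi1 was 1.97-fold (1.59 to 2.46), Pcgf1 1.81-fold (1.36 to 2.44) and Kdm2b 1.70-fold (1.58 to 1.82) higher in the naive state, 3 members against 24.4% of 15249 genes. By CPM Kdm2b was at 1.17 and no longer called, and Bmi1 at 3.16. Phc1 at 0.0859 (0.0787 to 0.0935), Ring1 at 0.424 (0.320 to 0.557) and Cbx2 at 0.538 (0.468 to 0.616) were lower, 3 members against 32.6%. At 2-fold 0 were higher and 2 lower, against 16.7% and 22.2% of all genes, and by counting error alone 5 were higher and 4 lower, against 32% and 43.9%. The libraries also differed in fibroblast markers, which summed to 14.6 TPM in the naive and 76.7 TPM in the primed library, and their part was not tested.

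Converted primed cells were then compared with R1 primed cells. The numbers of members higher and lower by 1.5-fold were 0 and 0, against 6.73% and 11.1% of 14600 genes, so few genes of any kind were called. Phc1 was 1.18-fold higher (1.13 to 1.22) and Cbx2 1.17-fold (1.03 to 1.33) by counting error, and Pcgf6 at 0.878 (0.784 to 0.982) and Kdm2b at 0.912 (0.847 to 0.983) were lower. These 2 higher and 2 lower members compare with 16.2% and 23.1% of all genes beyond counting error. Of the other PRC1 genes, Scml2 alone was called, at 0.422 (0.261 to 0.668). R1 primed cells held the larger fibroblast sum, 216 TPM against 76.7 TPM, and its part was not tested.

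**Figure D4:**
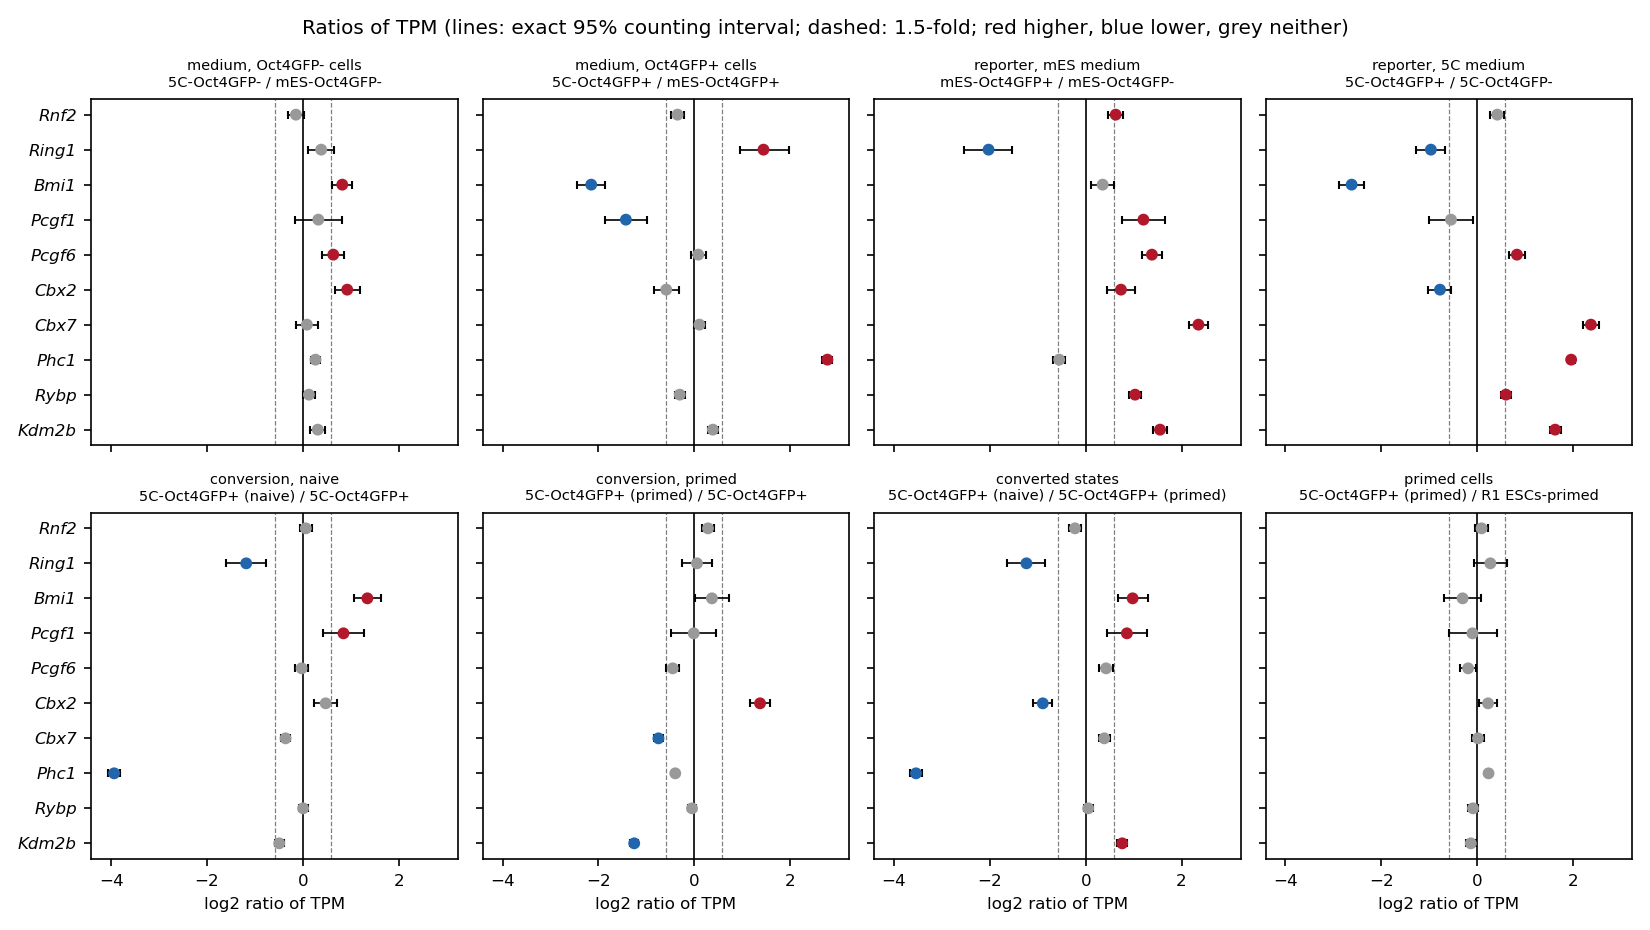
Ratio of TPM on a log2 scale (x axis) for each member (y axis) in the 8 comparisons; points are 1 library over 1 library, lines are exact 95% counting intervals, dashed lines mark 1.5-fold, and red, blue and grey stand for higher, lower and neither. Phc1 lies furthest left in the naive conversion at 0.0653, and no member is called between the primed libraries.

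The length ratio of the library with the longest to that with the shortest transcripts was 1.75 for Bmi1 and 1.51 for Kdm2b, and at most 1.31 for the other 8 members. The abundance-weighted length of Kdm2b transcripts was 2760.1 bases in GFP-positive and 3041 in GFP-negative cells of mES medium, 2921 and 3505 in those of 5C medium, 2779.8 in converted naive, 4179 in converted primed and 3992 in R1 primed cells. Kdm2b transcripts were thus longest in both primed libraries, and the gene has long forms that encode the demethylase domain and a short form, started inside the gene, that lacks it. Since TPM divides by this length, the naive to primed ratio of 1.70 became 1.17 in CPM.

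Bmi1 transcripts were 3073 bases in 5C-Oct4GFP+ and 1757 bases in converted primed cells, the extremes of its 7 libraries. The primed to 5C-Oct4GFP+ ratio of Bmi1 was 1.29 (1.0 to 1.6) by TPM and 0.726 by CPM, so that its direction in that comparison depended on the scale. For Rnf2 the sign also turned between TPM and CPM in 4 comparisons, none of which was called at 1.5-fold. In 2 of them the counting interval by TPM left out 1, the primed conversion given above and naive against primed cells, at 0.856 (0.785 to 0.933) by TPM and 1.19 by CPM. In the medium comparisons Bmi1 kept its direction, at 1.67 in Oct4GFP- and 0.310 in Oct4GFP+ cells by CPM.

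**Figure D5:**
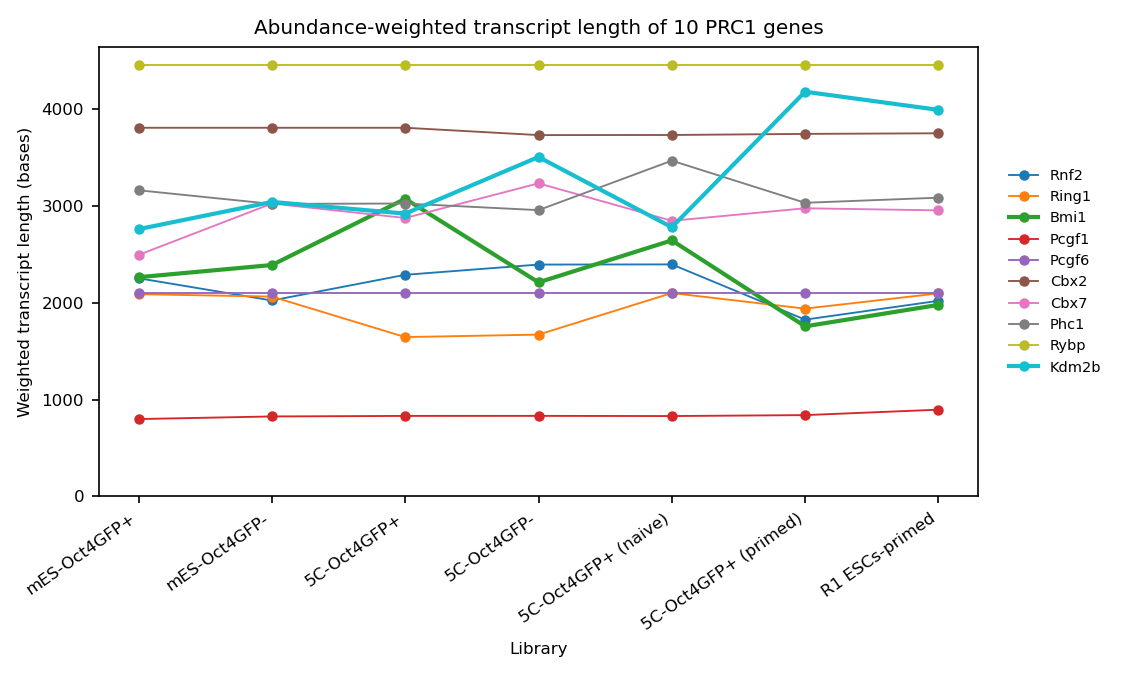
Abundance-weighted transcript length in bases (y axis, from 0) of the 10 members in the 7 libraries (x axis, no order implied); each colour is a gene and lines only join its points. Kdm2b reaches 4179 bases in converted primed and Bmi1 3073 bases in 5C-Oct4GFP+ cells, while Pcgf6 and Rybp have a single length.

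Of 6 erasers of the H2A ubiquitin mark, at most 1 was called in each direction in any of the 8 comparisons, where 6.73% to 27.5% of all genes were higher and 11.1% to 38% lower. In Oct4GFP- cells 0 of 6 passed 1.5-fold between media, with a median log2 difference of 0.33, and Usp21 was the most different at 1.44-fold (1.26 to 1.65). In Oct4GFP+ cells Usp16 was lower in 5C medium, at 46.2 against 87.6 TPM and a ratio of 0.527 (0.463 to 0.599), and Bap1, the catalytic subunit of PR-DUB, was 1.51-fold higher (1.36 to 1.69).

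Genes that PRC1 is known to hold silent, 39 Hox genes and 12 others, were counted beside the members. In Oct4GFP+ against Oct4GFP- cells 34 of 42 tested were lower in mES medium and 43 of 45 in 5C medium, against 38% and 35.5% of all genes. Many of the 42 and most of the 45 reached 1 TPM only in the Oct4GFP- library. The filter itself thus favoured this direction, and the counts are only a description. The Hox genes are also expressed in fibroblasts of the trunk, and the fibroblast sums differ between the same libraries as given above. Between media in Oct4GFP- cells 17 of 45 were higher and 11 lower in 5C, against 19.9% and 19.1% of all genes. Cdkn2a, the Ink4a-Arf locus that BMI1 is known to repress, was singled out after its values were seen. In GFP-negative cells it was at 236 TPM (mES medium) and 72.4 TPM (5C medium), where Bmi1 was at 31.2 and 55.2 TPM. In GFP-positive cells it was at 49.0 and 32.8 TPM, where Bmi1 was at 39.9 and 8.99 TPM.

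Germline genes that the PCGF6 complex is known to repress were compared with Pcgf6 itself. Dazl, an RNA-binding protein of germ cells, was at 191 TPM in GFP-positive and 0.08 in GFP-negative cells of mES medium, 9.10 and 0.24 in those of 5C medium and 135 TPM in converted naive cells, and was listed at 0 in both primed libraries. Pcgf6 was at 77.0, 29.6, 81.7, 45.9 and 80.3 TPM in the first 5 and at 59.8 and 68.2 TPM in the primed libraries. Of the 10 germline genes, 9 were higher in mES-Oct4GFP+ than in mES-Oct4GFP-, against 27.5% of all genes. Likewise 9 were higher in converted naive than in converted primed cells, against 24.4%. In both comparisons most of the 9 were below 1 TPM in the lower library and passed the filter only through the higher one. The filter itself thus favoured this direction, and the counts are only a description.

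For the members with the widest ranges, the genes with the most similar profile were sought among 11463 genes over the 7 libraries, by the root mean square difference of centred log2(TPM + 1). Closest to Phc1 were Arhgap22 (0.33), Dnmt3a (0.40) and Whrn (0.45). Dnmt3a, a de novo DNA methyltransferase, was at 97.1 TPM in 5C-Oct4GFP+, 82.8 in converted primed, 136 in R1 primed and 12.9 TPM in converted naive cells. Closest to Bmi1 were Camkk2 (0.22), Kctd15 (0.27) and Scube3 (0.29), and Camkk2 was at 32.1 TPM without and 6.50 TPM with GFP in 5C medium.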

How the data were processed

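RNA was taken with TRIzol, libraries were made with the Illumina TruSeq kit and sequenced on a MiSeq. The submitters' processing notes name Bowtie, RSEM and mm10, without versions. Per library, the authors deposited RSEM's expected count, TPM and FPKM per Ensembl gene, and transcript lengths weighted by isoform abundance. RSEM splits reads between isoforms and paralogs by estimation, so a shift in estimated isoforms changes TPM at equal reads. The tables' annotation release was not given in the sources used here.

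From these files, symbols came from GENCODE M21, which matched 28756 of 29267 identifiers and left 511 without a symbol. Levels are TPM, with exact Poisson intervals of the expected counts after rounding. Differences are of log2(TPM + 1), which understates changes of low genes, over genes of at least 1 TPM in either library, and a call needs 1.5-fold. Ratios of TPM carry exact Clopper-Pearson intervals at 95%, and shares of paralogs delta-method intervals. Ratio intervals were run on data simulated with the same counting model, which leaves out RSEM's estimation of counts and lengths. That run therefore says nothing about errors of these estimates. All intervals cover counting error only, because each group was 1 library, and they take RSEM's estimated lengths and rounded counts as exact. Reads carry no molecular identifiers, so duplicates of a molecule could not be told apart. Samples were grouped by their labels, 1 library a group, in 8 comparisons with no test across cultures. Members, lists and comparisons were chosen with earlier results of these data known. Besides the 10 members, the marker genes and the paralogs summed for shares, genes named are the 3 with the largest difference in a list and comparison. Also named are the 3 with the nearest profile to each of the 2 members of widest range. The PRC1, eraser, target and germline lists hold 26, 6, 51 and 10 genes. A further gene of the PRC1 list is not reported here and is in none of its counts, medians or shares.

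Alternatives were a pseudocount of 0.1, a minimum of 5 TPM, no minimum, median-ratio size factors, FPKM, calls at 2-fold or by counting interval, and, chosen after seeing the data, CPM, the expected counts scaled to the library total. Promoter sequences are from RefSeq (GRCm38.p6). Reads of the retroviral Oct4, Sox2, Klf4 and c-Myc cannot be told apart from those of the genes, so no value of these is given. Computation used scipy 1.17.1, pandas 2.3.3 and numpy 2.4.6 in Python 3.11.15, with figures from matplotlib 3.10.9.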

Additional observations from a re-analysis of the deposited data

Results flagged for a closer look

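With 1 library per group no sample could be compared with others of its group. For 4 members a ratio pointed opposite ways in the sorted libraries with both counting intervals leaving out 1, for the reporter ratio in all 4 (8.89% of all genes) and for the medium ratio in 2 (17.5%). These differences were not tested across cultures. The ratio of 5C over mES medium in Oct4GFP+ cells, divided by that in Oct4GFP- cells, was 0.127 for Bmi1, 0.297 for Pcgf1, 0.351 for Cbx2 and 5.71 for Phc1. For Bmi1 and Cbx2 the medium ratios themselves were opposite. For Pcgf1 and Phc1 the opposite ratios were those of Oct4GFP+ over Oct4GFP- cells in the 2 media, and for Pcgf1 the medium ratio in Oct4GFP- cells, 1.25 (0.898 to 1.75), held 1 in its counting interval. The same quotient also left out 1, with no ratio turned, for Ring1 at 2.09 (1.42 to 3.08), Pcgf6 at 0.682 (0.565 to 0.824) and Rybp at 0.742 (0.663 to 0.831).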

How the results depend on the processing

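No paired analysis was possible because each group was 1 library and the labels give no replicate numbers. The spread between cultures is unknown, and members with few reads (Ring1, Pcgf1) have the widest counting intervals. No member called at 1.5-fold changed direction under any alternative run. Calls of members changed for Rnf2 and Cbx2 (reporter, 5C medium) and Pcgf6 (naive against primed, log2 difference 0.60) under median-ratio scaling and for Kdm2b (naive against primed, 0.23) by CPM, and the sign of uncalled members turned for Rnf2, Bmi1, Pcgf6, Pcgf1 and Ring1 within single comparisons. The pseudocount moved 0 of 80 member differences beyond counting error, FPKM 2, median-ratio scaling 19 and CPM 20.

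A 2-fold threshold left 0 members called for medium in Oct4GFP- cells, 4 for the reporter in 5C medium and 2 between naive and primed cells, and it left 3133 genes called for medium in Oct4GFP- cells, 4138 for medium in Oct4GFP+ cells, 4862 for the reporter in 5C medium, 4094 for naive conversion, 4478 for primed conversion and 1079 between the primed libraries. Calls by counting interval gave 6 members for medium in Oct4GFP- and 8 in Oct4GFP+ cells, 7 for naive and 7 for primed conversion and 4 between the primed libraries, with 9804 genes for medium in Oct4GFP- cells, 11028 for primed conversion and 5742 between the primed libraries. A minimum of 5 TPM left 1320 genes called between the primed libraries. These follow from the construction of each rule.

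In expected counts, which are not per length, the share of Cbx7 ran from 18.8% to 62.2%, that of Phc1 from 50.1% to 92.7% and that of Rybp from 81.2% to 97.6%, and the highest share of Ring1 was 27.0%.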

Other observations

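Outside the values above, germline genes differed among the pluripotent libraries, though not all one way. Stk31, a testis gene with a Tudor domain, was at 64.6 TPM in mES-Oct4GFP+ and 52.5 TPM in converted naive cells, at 3.76 TPM in 5C-Oct4GFP+ cells and listed at 0 in both primed libraries. Between media in Oct4GFP+ cells, 5 of 10 germline genes were lower and 1 higher in 5C, against 24.5% and 21.9% of all genes. In naive conversion 4 were higher and 4 lower, against 18.3% and 28.6%, and Mael, a germline gene of the piRNA pathway, was at 12.7 TPM in 5C-Oct4GFP+ against 3.06 TPM in mES-Oct4GFP+ and 2.77 TPM in converted naive cells. PRC1 target genes differed between the primed libraries, where 0 of 10 members were called. Of 31 tested, 28 were lower and 1 higher in converted primed than in R1 primed cells, against 11.1% and 6.73% of all genes. Most of the 31 reached 1 TPM only in R1 primed cells, so the filter itself favoured this direction and the count is only a description. Cdkn2a, above 1 TPM in both libraries, was at 12.1 against 73.5 TPM, a ratio of 0.164 (0.122 to 0.219). Fibroblast markers summed to 76.7 and 216 TPM in the same libraries. Their part in this was not tested.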
